A study of Rattus norvegicus with 7 samples.

Results

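This comparison set cultured rat hippocampal neurons against cultured rat hippocampal astrocytes at the doses of grape seed extract that both received. Of the 7 arrays of the study, the 6 at shared doses were used, 3 from neurons and 3 from astrocytes, at 0, 1 and 10 µg/ml, and the astrocyte array at 100 µg/ml was left out. The cells were primary cultures from Wistar rats, with an age given in the labels as 17 days without a statement of whether this counts from conception or birth, and no label names a genetic change. Both cell types were kept in the same medium (DMEM with glutamine, the N1 supplement, penicillin and streptomycin) and exposed to the extract, a plant preparation rich in polyphenols, for 24 h. The cultures at 0 µg/ml were the untreated controls. Each combination of cell type and dose was measured on 1 array, so arrays at different doses stand in for replicates, and no label says how many animals or separate cultures lie behind an array. Total RNA was measured on Affymetrix rat arrays, whose median signals lay between 73.5 and 88.05. The comparison was described over all 8740 probe sets that are not array controls, and gene results use the brightest probe set of each gene.

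Neurons carry electrical signals along axons, through voltage-gated ion channels, and pass them on at synapses, where vesicles release glutamate, GABA or peptides onto receptors of the next cell. Astrocytes are glial cells that take up glutamate and potassium, supply lactate and lipids, are coupled by gap junctions and secrete matrix and growth factors, and they answer inflammatory signals with chemokines and interferon-induced genes. Primary brain cultures of either kind can also hold oligodendrocyte lineage cells, microglia, meningeal fibroblasts and vascular cells, whose genes were therefore listed as well. Values are the authors' signal intensities, which are linear and were scaled per array. A difference is neurons minus astrocytes in log2, after signals under 18.2, the 25th percentile, were raised to that floor, so folds, which are ratios of geometric means over the 3 arrays, are minimum estimates where values were at the floor. Probe sets entered the test when the mean of either cell type was above 82.95, the median signal, and a gene was called at an adjusted p below 0.05 in a limma fit with dose as a block. P-values measure only the spread between these arrays, which may be technical and which holds any dose effect that differs between the cell types. Unless stated otherwise, 3 values in a row are in the order 0, 1 and 10 µg/ml.

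The cell types differed widely. Of 4688 probe sets tested, 1895 (40.4%) were called, 1062 (22.7%) higher in neurons and 833 (17.8%) higher in astrocytes. By gene, 1184 of 2924 (40.5%) were called, 641 (21.9%) higher in neurons and 543 (18.6%) higher in astrocytes, and these shares are the background for the gene lists. Differences of at least 4-fold were called for 217 probe sets higher in neurons and 148 higher in astrocytes, and differences of at least 16-fold for 37 and 22. In 2672 of the tested probe sets (57%) the arrays of the cell types did not overlap. A 2-fold difference in the same direction at every dose was seen in 390 probe sets higher in neurons and 298 higher in astrocytes. The median difference over all tested probe sets was 0.071 log2, and by dose it was 0.024, 0.078 and 0.11. Log2 signals correlated at 0.988 among the neuron arrays, between 0.974 and 0.984 among the astrocyte arrays and between 0.927 and 0.934 across cell types, over probe sets that are not independent. The astrocyte arrays varied more among themselves, with a median SD of 0.21 log2 against 0.13 in neurons. Each array had its own dose, so this spread cannot be divided between dose and differences of single arrays or cultures. The count of called probe sets was 966 without the 1 µg/ml pair of arrays, 1446 without the untreated pair and 2103 without the 10 µg/ml pair.

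**Figure D1:**
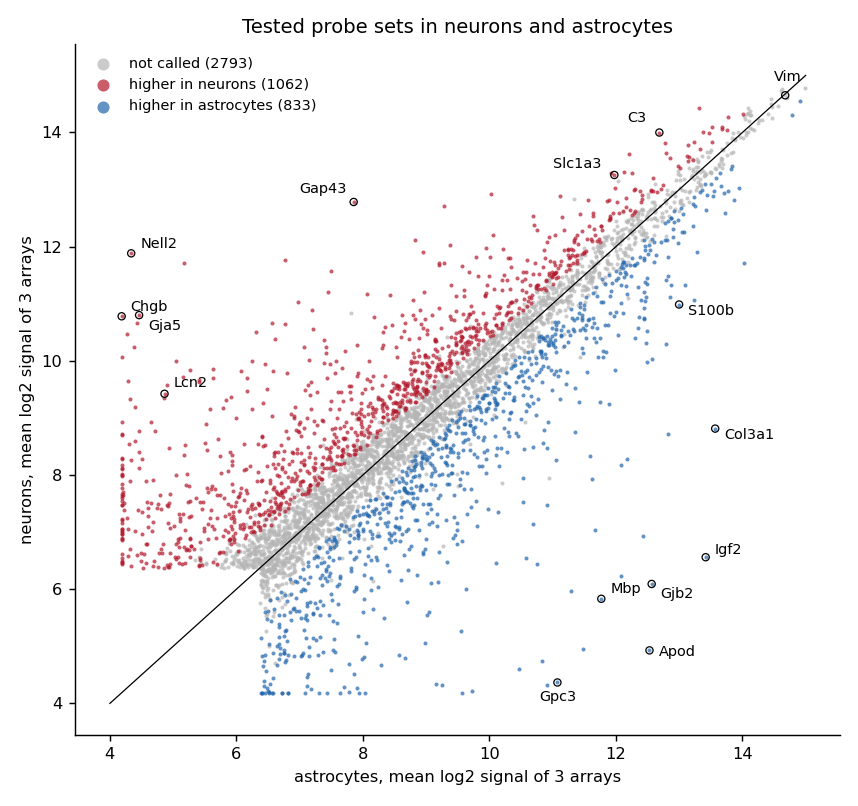
Mean log2 signal of the 3 neuron arrays (vertical axis) against that of the 3 astrocyte arrays (horizontal axis) for the 4688 tested probe sets, after signals were raised to the floor. Points are coloured where the adjusted p was below 0.05 (1062 higher in neurons, 833 higher in astrocytes), the line marks equal signal, and the column and row of points at the edges hold probe sets at the floor in one cell type. Genes named in the text are ringed.

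Among the 20 largest differences in the direction of neurons were genes known from neuronal secretion, the axon and the synapse. Nell2, which encodes a secreted protein made by neurons, gave 4013, 3550.1 and 3783 in neurons and 21.8, 20.8 and 17.6 in astrocytes. Its neuron arrays were all far above its astrocyte arrays, of which the one at 10 µg/ml was under the floor, and the difference was at least 187-fold (7.55 ± 0.15 log2, SE, adjusted p = 1.72e-05). Chgb, a granin of dense-core secretory granules, gave 1851, 1606 and 1830.5 in neurons and 1, 9.9 and 3.2 in astrocytes, with all 3 astrocyte arrays under the floor (at least 96.6-fold, adjusted p = 2.16e-05). Dync1i1, the brain-enriched intermediate chain of the dynein motor, gave 1606, 1657 and 1595 in neurons and 15, 18.9 and 29 in astrocytes (6.23 ± 0.20 log2). Again no array of either cell type came near those of the other. Camkv, a kinase-like calmodulin-binding protein of dendritic spines, gave 1446, 1272 and 1554 in neurons and 21.8, 13.2 and 9.9 in astrocytes. Ptpn5, the striatum-enriched phosphatase STEP, gave 647, 662 and 633 in neurons and 17, 24.3 and 4.5 in astrocytes. The signals of both genes in astrocytes lay around the floor, so the differences were at least 73.4-fold and 32.3-fold. Gap43, the growth cone phosphoprotein, had a measurable signal in both cell types, with 6972, 6834 and 7340.1 in neurons and 303, 246 and 166 in astrocytes (4.93 ± 0.20 log2, adjusted p = 5.01e-05). Nefl, the light neurofilament subunit, gave 1239, 1139 and 1269 in neurons and 13.9, 10.5 and 27.1 in astrocytes, and its other tested probe set differed by 3.48 log2 where the brightest differed by 5.87.

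Others of the 20 are known from other functions. Gja5, which encodes the gap junction protein connexin 40, gave 1775, 1853 and 1726 in neurons and 27.6, 21.3 and 11.2 in astrocytes, but its other tested probe set differed by 0.29 log2, so the gene's level rests on which probe set is read. Cd200, a surface glycoprotein that restrains myeloid cells, gave 911, 1022 and 816 in neurons and 13.7, 31.7 and 97.9 in astrocytes. The neuron arrays were all above the astrocyte arrays, and the astrocyte signals were in the order of the doses. Lcn2, a siderophore-binding acute phase protein, gave 712, 737 and 617 in neurons and 6.8, 17.3 and 74.5 in astrocytes. Lrp2, the endocytic receptor megalin, gave 1500.5, 2103 and 974 in neurons and 83.2, 87.7 and 68.9 in astrocytes (4.19 ± 0.19 log2, with tested probe sets from 2.23 to 4.19). Nr4a3, an immediate early nuclear receptor, and Nptx2, a secreted pentraxin that gathers AMPA receptors, were higher in neurons by 4.23 and 4.57 log2. For Nptx2 the other tested probe set stood at 0.95. Myh2, a myosin heavy chain gene known from skeletal muscle, gave 742, 843 and 714 in neurons and 36, 41.1 and 9.5 in astrocytes, with no overlap of the arrays.

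Among the 20 largest differences in the direction of astrocytes were genes known for secreted carriers, growth factors, retinoid handling, the matrix, gap junctions and myelin. Apod, a secreted lipid carrier, gave 24.5, 37.2 and 31 in neurons and 6064, 5893 and 5799 in astrocytes. The astrocyte signals stayed within a narrow range at every dose, and the difference was 194-fold (-7.60 ± 0.17 log2, adjusted p = 2.16e-05). Igf2, an insulin-like growth factor, gave 111, 85.5 and 88.3 in neurons and 11102, 10960.4 and 10805 in astrocytes (-6.86 ± 0.13 log2), although tested probe sets of the gene ranged from -6.86 to 0.41. Gpc3, a cell-surface proteoglycan that binds growth factors, gave 17.9, 18.9 and 25.5 in neurons and 2690.0, 2137 and 1748 in astrocytes. Its neuron signals lay around the floor (at least 105-fold). Aldh1a2, a retinoic acid synthesising enzyme, gave 24.6, 6.4 and 5.4 in neurons and 2063, 1416 and 2414 in astrocytes. Crabp2, which carries retinoic acid to the nucleus, gave 15.2, 38.3 and 41.9 in neurons and 3684, 2506 and 2508 in astrocytes. Both genes were higher in every astrocyte array than in any neuron array, and the differences were at least 95.3-fold and 92.5-fold. Gjb2, the gap junction protein connexin 26, gave 86.4, 48.3 and 76 in neurons and 7469, 6966 and 4278 in astrocytes (-6.47 ± 0.26 log2). Gng11, a G protein gamma subunit, gave 8.3, 36.6 and 29.3 in neurons and 1992, 2123 and 1438 in astrocytes, and no other gene of the G protein list differed by as much in either direction.

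Ptgds, which makes prostaglandin D2 and is abundant in the meninges, gave 14.9, 19.3 and 15.9 in neurons and 839, 696 and 1022 in astrocytes. Aebp1, a secreted collagen-binding protein, was under the floor on all 3 neuron arrays (737, 745 and 795 in astrocytes, at least 41.7-fold). Igfbp6, a binding protein with a preference for Igf2, gave 64.7, 71.6 and 53.8 in neurons and 2802, 2788 and 1982 in astrocytes (-5.31 ± 0.14 log2). Ghr, the growth hormone receptor, gave 21.4, 18 and 20.5 in neurons and 676, 663 and 502 in astrocytes. Aqp1, a water channel of the choroid plexus, gave 12.8, 25.2 and 13.4 in neurons and 514, 637 and 569 in astrocytes. In both, the neuron arrays lay close to the floor. Ctsk, a collagen-degrading cathepsin, gave 146, 116 and 135 in neurons and 3023, 3710.1 and 3132 in astrocytes (-4.64 ± 0.17 log2). Mmp2, a gelatinase, gave 326, 328 and 282 in neurons and 4062, 4576 and 5266 in astrocytes (-3.89 ± 0.15 log2). Selenop, the plasma selenium carrier, Efemp1, a fibulin, Slc6a20a, a proline transporter, and Cpz, a carboxypeptidase, were higher in astrocytes, with differences from -4.31 to -3.89 log2.

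**Figure D2:**
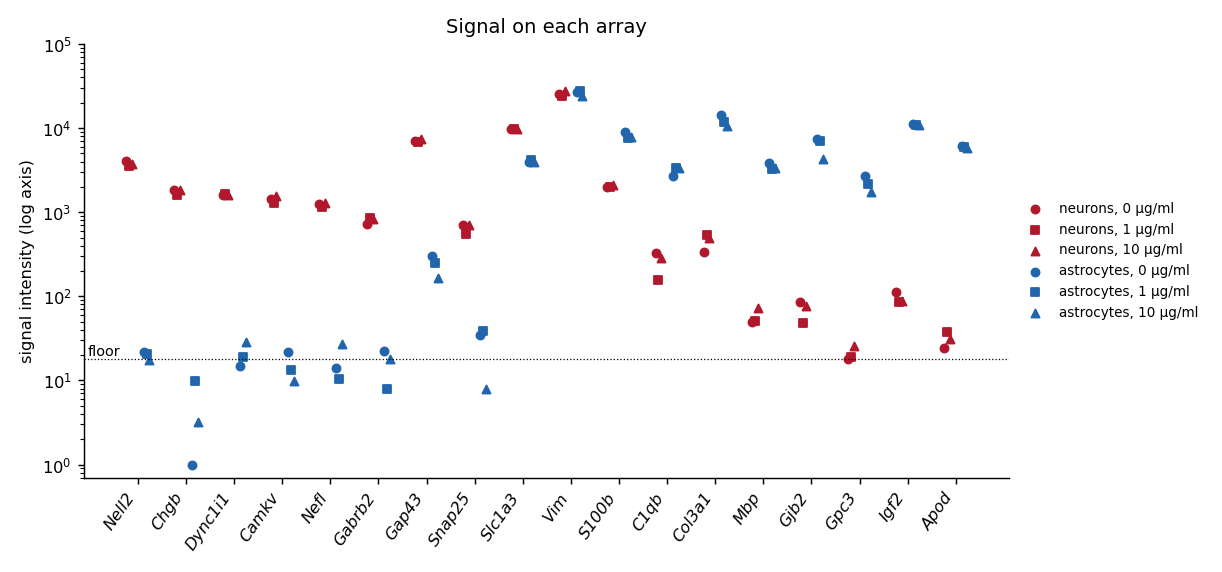
Signal intensity on each array (log axis) for 18 genes, neurons in red and astrocytes in blue, with the shape of a point giving the dose (circle 0, square 1, triangle 10 µg/ml). The dotted line is the floor of 18.2, under which values have no order. Arrays of the cell types do not overlap in any of these genes except Vim, in which both cell types lie between 23933 and 27796.4.

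The labelled cell types were set beside marker lists. These lists were chosen with earlier results of these data known, so they are not an independent check of the labels. The summed signal of 24 tested neuron markers was between 40254 and 42504 on the neuron arrays and between 13497 and 15381 on the astrocyte arrays. Of these genes 20 were higher in neurons and 3 higher in astrocytes, with a median difference of 2.68 log2 against 0.055 over all genes tested. Since a gene present in only one cell type enters the test through that cell type alone, the lists were also read over genes above the filter in both, of which 475 of 2516 (18.9%) were higher in neurons and 426 (16.9%) higher in astrocytes. In that class 10 of 13 neuron markers were higher in neurons. Map2, a microtubule protein of dendrites, gave 2844, 2976 and 2754 in neurons and 936, 1036 and 749 in astrocytes. Mapt, the axonal protein tau, gave 4126, 4177 and 4174 in neurons and 664, 655 and 687 in astrocytes. The exceptions were Nefh, the heavy neurofilament subunit (2.7, 12.2 and 18.9 in neurons and 144, 199 and 374 in astrocytes), Calb1, a calcium buffer (-1.15 log2), and Scg2, secretogranin II (-0.83 log2).

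Astrocyte markers did not separate the cultures in the same way. Of 21 tested, 7 were higher in astrocytes and 3 higher in neurons, with a median of -0.22 log2, and their summed signal was between 141203 and 148700 on the neuron arrays and between 147673 and 165161 on the astrocyte arrays. S100b, a calcium-binding protein of mature astrocytes, gave 1996, 1966 and 2127 in neurons and 9085, 7715 and 7828 in astrocytes (-2.01 ± 0.11 log2). Slc4a4, a bicarbonate cotransporter, and Agt, angiotensinogen, were also higher in astrocytes (-1.84 and -1.57 log2). Slc1a3, the glial glutamate transporter GLAST, went the other way, with 9877, 9644 and 9808 in neurons and 3976, 4162 and 3946 in astrocytes (1.28 ± 0.091 log2). Aqp4, the water channel of astrocyte endfeet, gave 949.9, 1126 and 949 in neurons and 567, 570.0 and 499.9 in astrocytes. Mt3, a brain metallothionein, gave 7036, 6657 and 7466 in neurons and 4324, 4609 and 3522 in astrocytes. In each of these 3 genes every neuron array was above every astrocyte array. Vim, an intermediate filament protein of glia, Fabp7, a fatty acid carrier of radial glia, Aldoc, an astrocyte-enriched aldolase, and Glul, glutamine synthetase, differed by -0.025, 0.034, 0.045 and 0.13 log2 and were not called. The arrays labelled neurons therefore carried clear signals of these astroglial genes. Of the list, 3 genes were higher in astrocytes without the 1 µg/ml pair, 10 without the 10 µg/ml pair and 1 without the signal filter.

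Markers of oligodendrocytes, microglia and fibroblasts were brighter on the astrocyte arrays. For the oligodendrocyte lineage 8 of 9 tested genes were higher in astrocytes and none in neurons (median -1.99 log2), with a summed signal between 3611 and 3786 in neurons and between 13831 and 17314 in astrocytes. Only 5 of the 9 were above the filter in both cell types, with 4 higher in astrocytes. Without the filter 8 of 12 were higher in astrocytes (median -1.81 log2). Mbp, myelin basic protein, gave 49.8, 51.3 and 72.3 in neurons and 3895, 3232 and 3378 in astrocytes (-5.94 ± 0.18 log2, adjusted p = 2.87e-05). Ugt8, an enzyme of myelin galactolipids, gave 65.9, 57 and 69.1 in neurons and 801, 818 and 754 in astrocytes. Mobp and Pllp, which encode further myelin proteins, were under the floor on all neuron arrays and were between 191 and 268 in astrocytes. Pdgfra, the receptor of oligodendrocyte precursors, gave 1538, 1499 and 1539.7 in neurons and 3730.1, 4949.7 and 7779.8 in astrocytes. Among microglia and macrophage genes 10 of 13 were higher in astrocytes and none in neurons (median -1.42 log2, and 5 of 18 without the signal filter), with a summed signal between 15909 and 19297 in neurons and between 33441 and 42219.7 in astrocytes. C1qb, a complement C1q chain, gave 326, 156 and 287 in neurons and 2722, 3367 and 3364 in astrocytes. Aif1, the microglial protein Iba1, gave 242, 144 and 179.6 in neurons and 1636, 1382 and 1426 in astrocytes. Their neuron arrays were low but not at the floor.

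Fibroblast and meningeal genes showed the most negative median of all 32 lists, -2.50 log2, with 16 of 19 higher in astrocytes and 3 higher in neurons. Only 9 of the 19 were above the filter in both cell types, with 7 higher in astrocytes and 2 in neurons. Without the filter 14 of 21 were higher in astrocytes and 2 in neurons (median -2.08 log2). Their summed signal was between 31328 and 34348 in neurons and between 69752 and 82682 in astrocytes. Col3a1, a fibrillar collagen, gave 340.1, 537 and 498 in neurons and 14385, 11669 and 10705 in astrocytes. Col1a1, another, gave 858, 1087 and 1118 in neurons and 6537, 6478 and 4488 in astrocytes. The neuron arrays held clear Col1a1 signal, though always less than the astrocyte arrays. The list's exceptions were Fmod, fibromodulin (7273, 7298 and 7184 in neurons and 3436, 2886 and 2791 in astrocytes), Igfbp2 (0.64 log2) and Postn, periostin (1.26 log2). Vascular genes were split, with 1 of 7 called in each direction: Kdr, a VEGF receptor, gave 293, 209.6 and 182 in neurons and 47.7, 38 and 30.2 in astrocytes, and Anpep, an aminopeptidase of pericytes, differed by -0.83 log2. Of 4 choroid plexus and ependymal genes, Ttr, transthyretin, was higher in neurons (1359, 1654 and 1590.3 in neurons and 522, 439 and 534 in astrocytes) and Aqp1 and Enpp2, autotaxin, were higher in astrocytes. In these bulk arrays fewer cells of a type and less RNA per cell cannot be told apart, and the part of these other cell types in the differences described here was not tested.

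**Figure D3:**
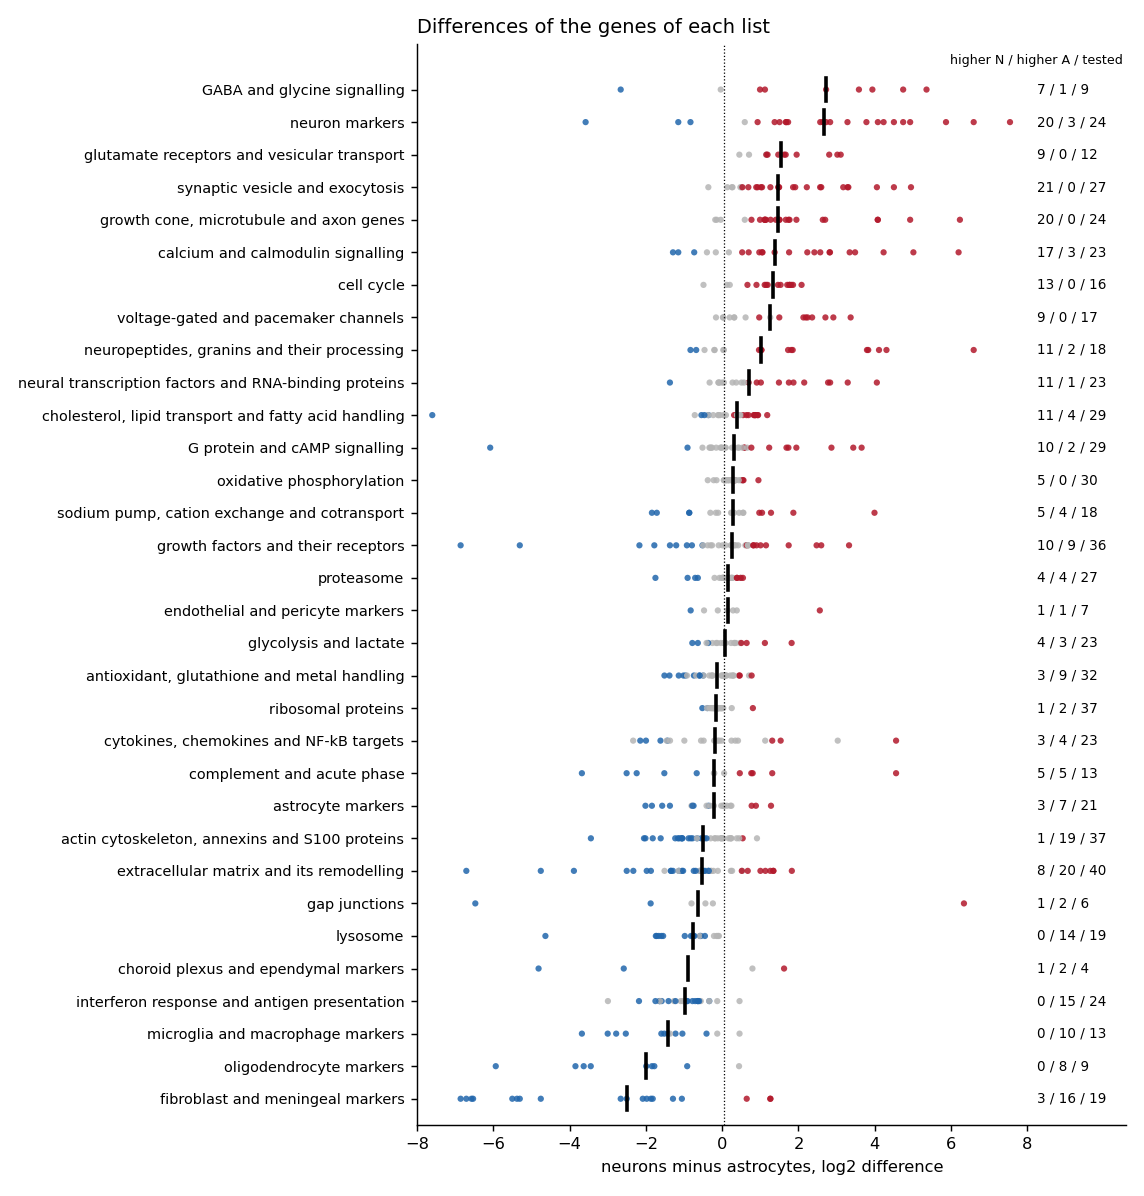
Log2 differences (neurons minus astrocytes) of the tested genes of 32 lists, each gene by its brightest probe set. Red and blue points were called higher in neurons or astrocytes, and grey points were not called. The black tick is the list's median and the dotted line the median of all genes tested (0.055). The numbers at the right count genes higher in neurons, higher in astrocytes and tested. The synaptic lists lie to the right and the oligodendrocyte, microglial and fibroblast lists to the left. The astrocyte marker list lies on both sides of 0 (median -0.22 log2).

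Glutamate receptor genes were higher in neurons wherever they were called. Of 31 glutamate receptor and vesicular transport genes on the array only 12 passed the signal filter, of which 9 were higher in neurons and none in astrocytes (median 1.55 log2). Only 4 of the 12 were above the filter in both cell types, with 3 higher in neurons, and without the filter the median was 0.50 log2 with 7 of 31 higher in neurons. Gria1, an AMPA receptor subunit, gave 2342, 2250.2 and 2362 in neurons and 264, 287 and 257 in astrocytes (3.11 ± 0.13 log2, adjusted p = 5.01e-05). Its lowest neuron array was well above its highest astrocyte array. Gria2, a second AMPA subunit, gave 241, 246 and 294 in neurons and 38.9, 39.3 and 33.4 in astrocytes, again without overlap. Grm3, a metabotropic receptor, gave 139.5, 188 and 123 in neurons and 17.1, 1.8 and 6.3 in astrocytes, with all astrocyte arrays under the floor. The NMDA receptor subunits Grin2a and Grin2b differed by 1.15 and 0.45 log2 and were not called (adjusted p = 0.13 and 0.124). Homer1 and Dlg4, scaffolds of the postsynaptic density, were higher in neurons by 1.67 and 1.47 log2.

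Of 21 GABA and glycine genes on the array 9 were tested, with 7 higher in neurons, 1 higher in astrocytes and a median of 2.72 log2. Of these, 4 were above the filter in both cell types, with 3 higher in neurons, and without the filter the median was 0.23 log2 over 21 genes. Gabrb2, a GABA-A receptor subunit, gave 726, 852 and 823 in neurons and 22.3, 7.8 and 18.2 in astrocytes. Gabra5, another, gave 329, 280.4 and 316 in neurons and 24.4, 4.8 and 5 in astrocytes. Glra2, a glycine receptor subunit, gave 224, 223 and 213 in neurons and 2.2, 1.8 and 18.5 in astrocytes. In all 3 the astrocyte arrays lay near or under the floor. Gad1, which makes GABA, gave 2223, 2278 and 2323 in neurons and 430.3, 322 and 294 in astrocytes (2.72 ± 0.16 log2). Slc32a1, which loads it into vesicles, gave 574, 409 and 495 in neurons and 7.5, 15.4 and 10.8 in astrocytes. Slc6a13, a GABA transporter of the meninges, was the exception, with 37.6, 19.4 and 36.3 in neurons and 171, 158 and 247 in astrocytes.

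Among 17 tested ion channel genes of 37 on the array, 9 were higher in neurons and none in astrocytes, with a median of 1.26 log2. Scn2a, a sodium channel of the axon, gave 505, 436 and 489 in neurons and 72.4, 45.2 and 29.9 in astrocytes. Scn3a, its developmental relative, gave 476, 338 and 385 in neurons and 63.1, 49.7 and 46 in astrocytes. Neuron and astrocyte arrays did not overlap in either. Kcnd2, an A-type potassium channel, gave 119.6, 115 and 122 in neurons and 10.3, 7.2 and 3.2 in astrocytes. Cacna2d1, an auxiliary calcium channel subunit, gave 1277, 1382 and 1069 in neurons and 208, 256 and 263 in astrocytes. Only 7 of the 17 were above the filter in both cell types, and of these 1 was called, and without the filter the median was 0.21 log2 over 37 genes.

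Release machinery followed the same direction. Of 27 tested synaptic vesicle and exocytosis genes 21 were higher in neurons and none in astrocytes (median 1.47 log2), and among the 15 above the filter in both cell types 11 were higher in neurons. Without the filter 12 of 48 were higher in neurons (median 0.47 log2). Sv2b, a vesicle glycoprotein, gave 955, 1035 and 1066 in neurons and 71, 11.9 and 27.6 in astrocytes. Syp, synaptophysin, gave 740.3, 618 and 783 in neurons and 106, 86.7 and 40.1 in astrocytes. Snap25, a SNARE protein of the plasma membrane, gave 713, 552 and 711 in neurons and 34.2, 38.6 and 8 in astrocytes (at least 22.7-fold). Stx1a, its SNARE partner, gave 2171, 1852 and 2269 in neurons and 113, 146 and 120.2 in astrocytes (4.06 ± 0.17 log2). Cadps, which primes dense-core vesicles, gave 1338, 1154 and 1155 in neurons and 109, 142 and 158 in astrocytes. The lowest neuron array exceeded the highest astrocyte array several-fold in all of these. Of the tested genes 6 were not called. They were Napa, an NSF attachment protein (-0.36 log2), Synj1, a vesicle-uncoating phosphatase (0.13), Unc13a (0.26), Syngr1 (0.27), Syt3 (0.48) and Amph (0.51).

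Growth cone, microtubule and axon genes had 20 of 24 higher in neurons and none in astrocytes, with a median of 1.45 log2. Crmp1, a semaphorin signalling protein, gave 3168, 2835 and 3159 in neurons and 203, 159.7 and 182 in astrocytes. L1cam, an axonal adhesion molecule, gave 850.0, 766 and 893 in neurons and 45.2, 54 and 49.1 in astrocytes. Both differed by 4.08 log2, with no overlap. Some genes of the list were bright in both cell types. Tubb2b, a neuronal beta-tubulin, gave 23031, 21409 and 21936 in neurons and 10466, 11284 and 8812 in astrocytes. Stmn1, a microtubule destabiliser, gave 7333, 7454 and 7843 in neurons and 2294, 2462 and 1933 in astrocytes. Both were still higher on every neuron array than on any astrocyte array. Marcks, an actin-binding kinase substrate, and Nrp1, a semaphorin receptor, were not called (-0.039 and -0.14 log2).

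In calcium and calmodulin signalling 17 of 23 genes were higher in neurons and 3 in astrocytes (median 1.37 log2), against 11 and 1 of 34 without the signal filter. Nrgn, neurogranin, which holds calmodulin at the membrane, gave 939, 827 and 1038 in neurons and 58.6, 54.7 and 37.9 in astrocytes. Prkce, a calcium-independent protein kinase C, gave 1144, 839 and 981 in neurons and 98.2, 84.2 and 81.3 in astrocytes. Pcp4, another calmodulin regulator, gave 3272, 3464 and 3284 in neurons and 677, 645 and 559 in astrocytes. Pvalb, the calcium buffer parvalbumin, gave 29.9, 54.1 and 45 in neurons and 81, 97 and 136 in astrocytes and was among the exceptions with Calb1 and Camk2d. G protein and cAMP genes were less one-sided, with 10 of 29 higher in neurons and 2 in astrocytes (median 0.32 log2). Rgs4, which shuts off Gq and Gi signals, gave 274, 213 and 369 in neurons and 7.3, 5.8 and 32.5 in astrocytes. Gnao1, the abundant brain alpha subunit, gave 6743, 6526 and 6870.4 in neurons and 719.5, 557 and 594 in astrocytes (3.44 ± 0.12 log2). Gng8, a gamma subunit, was higher in astrocytes by a smaller amount than Gng11 (-0.91 log2).

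Neuropeptide and granin genes had 11 of 18 higher in neurons and 2 in astrocytes, with a median of 1.03 log2. Among the 11 above the filter in both cell types 5 were higher in neurons and 1 in astrocytes. Without the filter 9 of 30 were higher in neurons (median 0.56 log2), and with a stricter filter (above 447.7) 4 of 9 were (median 0.043 log2). Cck, cholecystokinin, gave 340.0, 273 and 336 in neurons and 10.7, 11.2 and 11.6 in astrocytes. Sst, somatostatin, gave 5694, 5684 and 6424 in neurons and 1927, 1508 and 1533 in astrocytes. Sst was bright in both cell types, while Cck was under the floor on all astrocyte arrays. Penk, an opioid precursor, gave 3488, 3473 and 3419.5 in neurons and 3159, 3463 and 3462 in astrocytes and was not called. The related precursor Pdyn was not called either (-0.21 log2). Among receptors, Cnr1, for cannabinoids, gave 380.2, 468 and 469.6 in neurons and 16, 6.9 and 32.5 in astrocytes, and Sstr2, for somatostatin, differed by at least 13.9-fold. Trh, thyrotropin-releasing hormone, was slightly higher in astrocytes (-0.68 log2, adjusted p = 0.0334).

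Pairs of related genes, one known for neurons and one for wider or glial expression, were set side by side. Of 39 pairs listed, 22 had both genes on the array and 16 had both tested. The neuronal form was higher in neurons in 15 of the 16 and lower in none, against 21.9% of all genes tested. The other form was higher in astrocytes in 2 and higher in neurons in 2. A neuronal form can pass the signal filter through the neuron arrays alone, so the filter favours this outcome. Of the pairs left out, the neuronal forms Slc2a3, Slc16a7 and Cacnb4 were not tested (0.065, -0.16 and 0.28 log2). Kcnab2 was tested and not called (0.019 log2), and Atp2b2 and Gria2 were higher in neurons (2.82 and 2.81 log2). Snap25 and Snap23 differed by 4.50 and -0.42 log2, Gnao1 and Gnai2 by 3.44 and -0.013, and Dync1i1 and Dync1i2 by 6.23 and 0.29. In these pairs the wider form was not called. Opposite calls within a pair were found for the calmodulin kinases Camk2b (1571, 1442 and 1485 in neurons and 127, 159.5 and 159.8 in astrocytes) and Camk2d (851, 792 and 899 in neurons and 1392, 1502 and 1333 in astrocytes), and for the dynamins Dnm1 (968, 755 and 937 in neurons and 189, 181 and 199 in astrocytes) and Dnm2 (277, 256 and 346 in neurons and 559, 623 and 464 in astrocytes). The chloride cotransporters Slc12a5, which extrudes chloride from mature neurons, and Slc12a2, which imports it, were both higher in neurons, by 3.99 and 0.97 log2. The aldolases Aldoa and Aldoc were the pair in which the neuronal form did not have the larger difference (-0.26 and 0.045 log2).

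**Figure D4:**
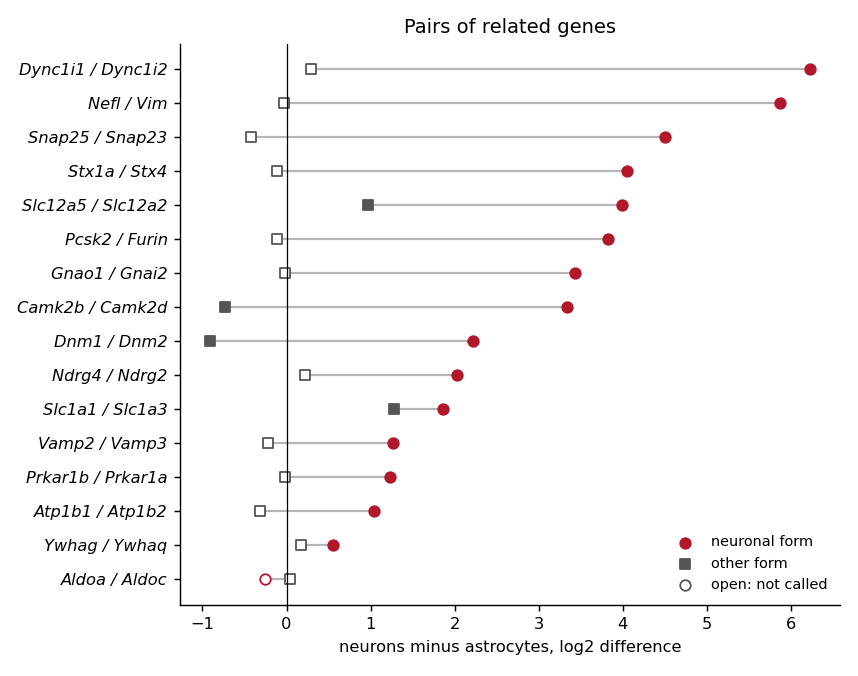
Log2 difference (neurons minus astrocytes) for the 16 pairs of related genes with both members tested. Red circles are the form known for neurons and grey squares the other form, and open symbols were not called. The neuronal form was called in 15 pairs, all to the right of 0, and the other form lies within 1 log2 of 0 in all pairs but Slc1a1 and Slc1a3.

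Transcription factors and RNA-binding proteins of neural cells had 11 of 23 higher in neurons and 1 in astrocytes (median 0.69 log2). Among the 16 above the filter in both cell types 5 were higher in neurons and 1 in astrocytes. Without the filter 7 of 29 were higher in neurons (median 0.39 log2), and with a stricter filter (above 447.7) 4 of 10 were (median 0.16 log2). Myt1l, which represses non-neuronal genes, gave 421, 484 and 412 in neurons and 28.8, 34.1 and 18.6 in astrocytes. Neurod1, a proneural factor, gave 148, 202 and 202 in neurons and 11.7, 19.5 and 5.7 in astrocytes. In astrocytes the first was close to the floor and the second reached it. Elavl4, a neuronal RNA-binding protein, gave 636, 618 and 583 in neurons and 129.7, 70.1 and 70.1 in astrocytes. Lhx2, a forebrain patterning factor, gave 2642, 3249 and 2758 in neurons and 1001, 1074 and 998 in astrocytes. Id3, an inhibitor of proneural factors, went the other way, with 2270.5, 2114 and 2253 in neurons and 7938, 7073 and 3329 in astrocytes, and its astrocyte arrays spread more than its neuron arrays.

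Cell cycle genes were brighter in neurons. Of 16 tested, all above the filter in both cell types, 13 were higher in neurons and none in astrocytes, with a median of 1.33 log2 that was 1.15, 1.34 and 1.57 by dose. Without the signal filter 6 of 20 were higher in neurons and 1 in astrocytes. Ccnb1, a mitotic cyclin, gave 457, 552 and 526 in neurons and 129, 122 and 111 in astrocytes. Top2a, a topoisomerase of dividing cells, gave 1643, 1723 and 2024 in neurons and 575, 686 and 418 in astrocytes. Mcm5, a replicative helicase subunit, gave 435, 472 and 425 in neurons and 153, 130.5 and 91.5 in astrocytes. Cdk1, the mitotic kinase, gave 585, 630.0 and 686 in neurons and 234, 181 and 138 in astrocytes. No astrocyte array reached the lowest neuron array in any of the 4 genes. Ccnd3, a G1 cyclin, Cdk4, its kinase, and Aurkb, a mitotic kinase, were not called (-0.49, 0.12 and 0.20 log2).

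Matrix genes leaned towards astrocytes with named exceptions. Of 40 tested 20 were higher in astrocytes and 8 in neurons (median -0.53 log2), against 12 and 4 without the 1 µg/ml pair and 12 and 3 of 45 without the signal filter. Beyond Col3a1, Gpc3 and Mmp2, the collagen processing enhancer Pcolce gave 146, 123 and 160.5 in neurons and 743, 715 and 694 in astrocytes. Bgn, biglycan, gave 1387, 1364 and 1669 in neurons and 5885, 5963 and 5515 in astrocytes. The 8 exceptions were Col11a1, a fibrillar collagen (1.13 log2), Fmod, named above, and 6 more. They were Cspg5, neuroglycan C (911, 982 and 687 in neurons and 197, 224 and 313 in astrocytes), Ptprz1, a receptor phosphatase of radial glia (1658, 1666 and 1796 in neurons and 687, 650.3 and 682 in astrocytes), the syndecans Sdc1 and Sdc2, the glypican Gpc1 and Spp1, osteopontin, which gave 1627, 1448 and 1520.1 in neurons and 639, 552 and 624 in astrocytes. The 6 differences were between 0.51 and 1.83 log2. The fibroblast and meningeal markers given above were brighter in astrocytes, and their part in the matrix list, which shares genes with them, was not tested. Fn1, fibronectin, was not called (-0.30 log2). Actin cytoskeleton, annexin and S100 genes had 19 of 37 higher in astrocytes and 1, Ezr, ezrin, higher in neurons (median -0.49 log2). The astrocyte count was 10 without the 1 µg/ml pair and 8 of 42 without the signal filter. Itgb4, a laminin receptor subunit, gave 52.7, 76.7 and 28.6 in neurons and 501, 479 and 619.7 in astrocytes. Anxa5, a phospholipid-binding annexin, gave 4949, 4474 and 5238 in neurons and 8529.5, 8867 and 8551 in astrocytes. The abundant actins Actb and Actg1 stood at 0.17 and 0.23 log2 and were not called.

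Growth factor and receptor genes had 10 of 36 higher in neurons and 9 in astrocytes, and 6 each way without the 1 µg/ml pair. Ntrk2, the BDNF receptor TrkB, gave 229, 249 and 234 in neurons and 14.5, 10.4 and 39.9 in astrocytes. Igfbp3, a carrier of insulin-like growth factors, gave 1635, 1699 and 1912 in neurons and 214, 244 and 459 in astrocytes. Nrg1, neuregulin 1, gave 371, 372 and 282 in neurons and 117, 75 and 119 in astrocytes, and in none of the 3 did the cell types overlap. The binding proteins of insulin-like growth factors lay on both sides, with Igfbp2, Igfbp3 and Igfbp5 higher in neurons (0.64, 2.60 and 2.48 log2) and Igfbp6 higher in astrocytes. Igf1, like Igf2, was higher in astrocytes (-0.93 log2), as were the morphogens Bmp4, Bmp6 and Bmp7 (-2.17, -0.79 and -1.37 log2) and Fgf2 (-1.21 log2).

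Of 19 lysosomal genes tested 14 were higher in astrocytes and none in neurons, and all 19 differences were below 0, with a median of -0.76 log2, and without the 1 µg/ml pair 9 were called. Lipa, the acid lipase, gave 909, 891 and 885 in neurons and 2756, 3059 and 3167 in astrocytes. Ctsb, a cathepsin, gave 1687, 1596 and 1805 in neurons and 4681, 5491 and 6735 in astrocytes. Lamp1, a lysosomal membrane protein, gave 8029, 7838 and 7802 in neurons and 13296, 13412 and 13298 in astrocytes. The cell types did not overlap in these 3. Psap, the precursor of saposins, was bright and close in both (20878, 20126 and 20367 in neurons and 23796, 21896 and 19628 in astrocytes, not called). The microglia and macrophage markers given above were also brighter in astrocytes, their part in these values was not tested, and Ctss (-1.60 log2) is a member of both lists.

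Interferon response and antigen presentation genes had 15 of 24 higher in astrocytes and none in neurons, with a median of -0.98 log2 that was -0.40, -0.68 and -1.52 by dose. The count was 5 without the 1 µg/ml pair and 4 of 27 without the signal filter. Microglia and macrophage markers, given above, were brighter in astrocytes in 10 of 13 genes, the lists share antigen presentation genes, and the part of those markers in these values was not tested. Irf8, a myeloid interferon regulatory factor, gave 128, 147 and 126 in neurons and 416, 388 and 452 in astrocytes, with little difference between doses in either cell type. Psmb8, an immunoproteasome subunit, gave 348, 317 and 321 in neurons and 907, 789 and 1887 in astrocytes (-1.75 ± 0.27 log2). RT1-S3, a class I antigen gene, gave 256, 122 and 116 in neurons and 592, 499 and 1150.0 in astrocytes. For both, the astrocyte array at 10 µg/ml was the highest. Complement and acute phase genes had 5 of 13 called in each direction (3 higher in neurons and 4 in astrocytes without the 1 µg/ml pair). C3, the central complement component, gave 16720.2, 16622 and 15790.0 in neurons and 5386, 5577 and 9543 in astrocytes. Serping1, the C1 inhibitor, gave 5882, 4857 and 5169.9 in neurons and 3011, 2808 and 3316 in astrocytes, all neuron arrays above all astrocyte arrays. Cfd, adipsin, gave 203, 173 and 185 in neurons and 898, 895 and 854 in astrocytes. Serpina3n, a secreted protease inhibitor, gave 109, 142 and 121 in neurons and 604, 707 and 799 in astrocytes, with the astrocytes higher.

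Of 32 antioxidant, glutathione and metal handling genes tested 9 were higher in astrocytes and 3 in neurons, with a median of -0.13 log2, and without the 1 µg/ml pair 5 and 1 were. Nqo1, a quinone reductase, gave 1932, 1658 and 2321 in neurons and 5332, 4584 and 7091 in astrocytes. Gstp1, a glutathione transferase, gave 3862, 3640.0 and 4016 in neurons and 9743, 10072 and 10198 in astrocytes. Sod3, the secreted superoxide dismutase, gave 763, 704 and 769 in neurons and 1509, 1424 and 1588 in astrocytes. Sod1, Cat, Gpx1, Gclc and Txnrd1, which detoxify superoxide and peroxides or sustain glutathione and thioredoxin, were between -0.27 and 0.11 log2 and not called. Hmox1, which degrades heme, gave 1180.2, 1038 and 1456 in neurons and 1345, 1608 and 5607 in astrocytes, and only its astrocyte array at 10 µg/ml stood apart.

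Of 29 tested genes of cholesterol and fatty acid handling 11 were higher in neurons and 4 in astrocytes (median 0.39 log2). These counts were 7 and 2 without the untreated pair, 3 and 1 without the 1 µg/ml pair, 3 and 1 without the signal filter, and 2 and 3 with the 100 µg/ml array added. The sterol synthesis enzymes Sqle, Idi1, Dhcr7, Cyp51 and Fdps were higher in neurons by between 0.55 and 0.93 log2, Fdft1 and Lss were not called, and Fasn and Scd, which make fatty acids, were higher by 0.94 and 0.84. Fabp5, a fatty acid carrier, gave 10209, 9706 and 10380.2 in neurons and 4478, 4289.5 and 4597 in astrocytes. The genes higher in astrocytes were Apod, Apoe (-0.36 log2) and the fatty acid oxidation enzymes Cpt2 and Acadvl (-0.54 and -0.47 log2).

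Of 23 glycolysis and lactate genes 4 were higher in neurons and 3 in astrocytes (median 0.063 log2), against 2 and none without the 1 µg/ml pair and 7 and 3 without the 10 µg/ml pair. Hk1, the brain hexokinase, and Slc16a1, a lactate transporter, were higher in neurons (0.64 and 1.12 log2), and Pkm, pyruvate kinase, Pygb, glycogen phosphorylase, and Pdk2, which inhibits pyruvate dehydrogenase, were higher in astrocytes (-0.37, -0.64 and -0.78 log2). Ckmt1, mitochondrial creatine kinase, gave 349, 395 and 364 in neurons and 75.3, 84.7 and 178 in astrocytes. Of 30 oxidative phosphorylation genes 5 (16.7%) were higher in neurons and none in astrocytes, against 21.9% and 18.6% of all genes tested. In 27 of the 30 the difference was above 0, against 1579 of 2924 over all genes. The median was 0.29 log2 against 0.055 over all genes. Without the 1 µg/ml pair 1 of the 30 was called, and without the untreated pair 3 were. With median centring 3 were higher in neurons, and with quantile normalization 8 of 29 were. Uqcrfs1, an iron-sulfur protein of complex III, gave 5999, 6528 and 6008 in neurons and 3833, 3469 and 2454 in astrocytes. Pumps and cotransporters had 5 of 18 higher in neurons and 4 in astrocytes. Atp1b1, a sodium pump subunit, gave 14535, 13903 and 14902 in neurons and 7786, 8111 and 5432 in astrocytes. Slc6a8, the creatine transporter, gave 381, 429.6 and 275 in neurons and 1043, 1176 and 1296 in astrocytes. Among 6 gap junction genes Gja5 was higher in neurons, and Gjb2 and Gja4, connexin 37, were higher in astrocytes.

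Of 37 ribosomal protein genes 1 was higher in neurons and 2 in astrocytes, with a median of -0.15 log2 and differences from -0.52 to 0.80 log2. Without the 10 µg/ml pair 14 were higher in astrocytes and 1 in neurons, and without the 1 µg/ml pair none was called in either direction by limma. Proteasome genes had 4 of 27 called in each direction, and the 4 higher in astrocytes were the interferon-inducible Psmb8, Psmb9, Psme1 and Psme2. Without the 1 µg/ml pair 2 proteasome genes were higher in astrocytes and none in neurons, and without the untreated pair 1 was higher in neurons. In 147 of the 2924 genes (5.03%) the difference was below 0.2 log2 at every dose, and the brightest of these were Vim, Psap, Rps29, Rps3, Rpl6, Oaz2, Oaz1, Capns1, Dad1 and Aldoc. Oaz1, an inhibitor of polyamine synthesis, gave 9983, 8997 and 9841 in neurons and 9994, 8801 and 9207 in astrocytes, and the arrays of the cell types were interleaved.

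The gap between the cell types was not the same on the arrays of every dose. With 1 array per cell type and dose, an effect of dose cannot be told apart from a difference of a single array or culture. The slope of the signal on log10 of the dose plus 1 differed between the cell types in 32 of 4688 probe sets (0.683%) at an adjusted p below 0.05, 29 with a lower slope in neurons and 3 with a higher one, and in 21 of 2924 genes (0.718%). The list of cytokines, chemokines and NF-kB targets held 9 of these 21 genes and the interferon list 3. Averaged over doses, 3 of 23 cytokine genes were higher in neurons and 4 in astrocytes, and the list's median difference was 0.55, 0.31 and -1.53 log2 by dose. Without the 10 µg/ml pair 12 were higher in neurons and 5 in astrocytes, without the untreated pair 3 and 7, and without the 1 µg/ml pair 3 and 2. Ccl20, a chemokine for immature dendritic cells, gave 1889.9, 2032 and 1609.9 in neurons and 45.1, 72.5 and 3475 in astrocytes. It was far higher in neurons at 0 and 1 µg/ml and higher in astrocytes at 10 µg/ml, and the difference in slope was -6.57 ± 0.71 log2 per unit (SE, adjusted p = 0.0188). Ccl2, a monocyte chemokine, gave 9082, 8986 and 9294 in neurons and 1692, 3849.9 and 11173 in astrocytes. Cx3cl1, fractalkine, gave 1879, 1824 and 1935 in neurons and 726, 1078 and 5105 in astrocytes. Vcam1, an adhesion molecule, gave 2657, 2492 and 2517 in neurons and 827, 1559 and 5461 in astrocytes. In all 3 the neuron arrays stayed level, and the astrocyte arrays went from below them to above them. The slope differences were -2.48, -2.71 and -2.64.

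Of the interferon list, Rsad2, Gbp2 and Irf1 had a called slope. Rsad2, the antiviral protein viperin, gave 338, 239.6 and 187 in neurons and 429.5, 1608 and 11128 in astrocytes. Cxcl10, a T cell chemokine, gave 285, 216 and 204 in neurons and 332, 547 and 8879 in astrocytes. Gbp2, a guanylate-binding GTPase, gave 625, 529 and 354 in neurons and 678, 903 and 5654 in astrocytes. Untreated neurons and astrocytes were close in these genes, and at 10 µg/ml the astrocyte signal was higher while the neuron signal was the lowest of its 3. Their slope differences were -5.13, -5.12 and -3.85, with adjusted p of 0.00858, 0.0117 and 0.0117. Irgm2, an immunity-related GTPase, gave 451, 435 and 262 in neurons and 393, 653 and 2244 in astrocytes. Irf1, the interferon regulatory factor that drives such genes, gave 2275, 2525 and 1856 in neurons and 2431, 3305 and 12761 in astrocytes. The other called genes with a lower slope in neurons were Il1a, Gch1, Fosl1, Pvr, Nfkbia, Cd200, Pde4b, Cebpb, Icam1, Zfp36 and Litaf, between -4.06 and -1.43. Nfkbia, the inhibitor that NF-kB induces, gave 1273, 1514 and 1180.2 in neurons and 668, 993 and 4036 in astrocytes, so that the difference changed sign between 1 and 10 µg/ml while its mean was -0.079 log2. Of these 21 genes only Cd200 and Zfp36 were also called for the mean difference between the cell types.

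Fst, follistatin, an activin-binding protein, was the called gene with a higher slope in neurons, with 486, 517 and 461 in neurons and 579, 436 and 112 in astrocytes (2.25 ± 0.32 log2 per unit, adjusted p = 0.0478). The astrocyte signal at 10 µg/ml was the lowest of its 6 arrays. Other genes in which the gap widened towards neurons did not pass the test. Nrn1, neuritin, gave 902, 881 and 973 in neurons and 862, 473 and 219 in astrocytes. Cnn1, calponin, gave 1583, 1577 and 1506 in neurons and 1349.6, 1103 and 379 in astrocytes. Ccn1, a matricellular protein, gave 508, 565 and 325 in neurons and 342, 291 and 67.5 in astrocytes. In these it was the astrocyte array at 10 µg/ml that lay lowest.

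**Figure D5:**
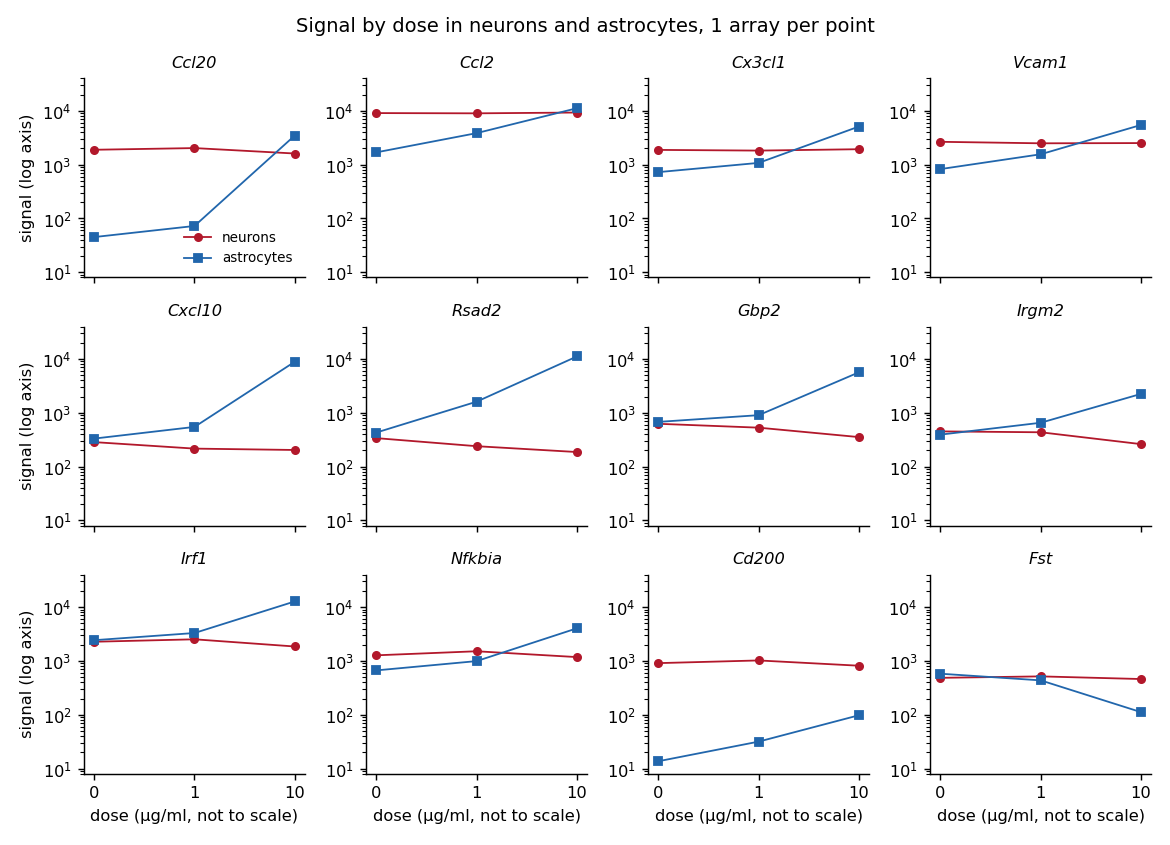
Signal intensity (log axis) by dose of grape seed extract for 12 genes whose slope differed between the cell types at an adjusted p below 0.05, with neurons in red circles and astrocytes in blue squares. Each point is 1 array and the lines only join the points of a cell type. The neuron lines stay within a 2-fold range, and in all genes but Fst the astrocyte line is highest at 10 µg/ml.

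Each slope rests on 3 arrays per cell type. With doses as ranks no probe set was called (487 at an unadjusted p below 0.05 in limma), with a constant variance prior 4 were, and without the signal filter 2. With an unadjusted p below 0.05 there were 667 probe sets by the fit as given.

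Because the slopes of 20 of the 21 genes differed in one direction, the RefSeq sequence of the 250 bases before the annotated start (build GRCr8) was searched for 2 motifs chosen after the values were seen. They were the core of the interferon-stimulated response element, TTTC and TTTC with 2 bases of any kind between them, and an NF-kB site, GGG and TTTCC with 2 bases of any kind between them, each read on both strands. A promoter was given for 19 of the 21 genes. The first motif was found in 5 of them (Cxcl10, Gbp2, Irgm2, Rsad2 and Vcam1), against 3.41% of 33469 promoters and 3.06% of the 2415 tested genes with a promoter, and the second in Ccl20 and Nfkbia, against 1.30% and 1.66%. A match is a description of these letters and not a site of binding. Below are 4 of these stretches, 5′ to 3′ in the direction of transcription, with the matched letters in capitals, shown because these genes had the widest change of the gap and hold a match. They lie at chr14:15988816-15989065 (plus strand) for Cxcl10, chr6:48788121-48788370 (minus strand) for Rsad2, chr2:234005477-234005726 (plus strand) for Gbp2 and chr9:91836909-91837158 (plus strand) for Ccl20.
Cxcl10: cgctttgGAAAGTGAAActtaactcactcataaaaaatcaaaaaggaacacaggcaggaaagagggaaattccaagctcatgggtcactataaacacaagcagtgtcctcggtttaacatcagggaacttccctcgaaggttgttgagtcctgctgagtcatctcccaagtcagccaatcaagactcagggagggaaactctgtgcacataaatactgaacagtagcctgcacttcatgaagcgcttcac
Rsad2: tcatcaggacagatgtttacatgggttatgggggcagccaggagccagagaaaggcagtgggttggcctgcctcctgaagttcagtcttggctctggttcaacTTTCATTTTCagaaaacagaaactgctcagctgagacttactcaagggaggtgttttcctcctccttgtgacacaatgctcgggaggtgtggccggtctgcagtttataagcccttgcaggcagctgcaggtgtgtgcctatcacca
Gbp2: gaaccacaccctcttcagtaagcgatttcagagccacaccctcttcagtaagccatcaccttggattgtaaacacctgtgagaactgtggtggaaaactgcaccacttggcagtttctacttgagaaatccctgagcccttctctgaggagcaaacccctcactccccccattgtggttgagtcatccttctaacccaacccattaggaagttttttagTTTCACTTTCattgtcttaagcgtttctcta
Ccl20: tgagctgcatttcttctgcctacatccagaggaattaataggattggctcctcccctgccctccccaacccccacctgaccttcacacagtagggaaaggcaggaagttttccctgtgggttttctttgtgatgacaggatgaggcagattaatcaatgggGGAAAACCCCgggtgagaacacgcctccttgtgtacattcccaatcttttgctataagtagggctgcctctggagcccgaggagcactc
Each stretch held 1 match and no matches overlapped. The match in Gbp2 began 31 bases before the start, that in Ccl20 89, that in Rsad2 147 and that in Cxcl10 243.

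Probe sets of the same gene were rarely called in opposite directions, and the signs of probe sets not called were not counted. Of 819 genes with at least 2 tested probe sets, 4 had probe sets called in opposite directions: A2m, a plasma protease inhibitor, Sparc, a matrix glycoprotein, Tpm1, a tropomyosin, and Hrk, a proapoptotic protein. The brightest probe set of A2m stood at -0.21 log2 and that of Sparc at -0.37, and where such a gene is in a list it is counted by that probe set alone.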

How the data were processed

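Gene expression was measured on Affymetrix rat arrays from 100 ng of total RNA per culture, labelled as biotinylated cRNA in a two-cycle procedure, per the labels' protocols. The deposited values are signal intensities on a linear scale, computed by the authors with the GCOS software per the submitters' processing notes, with version and settings not given in the sources used here. They were scaled per array, with 2%-trimmed means between 500.731 and 500.779 on the 6 arrays, and this scale was kept. Of 8799 probe sets 59 controls were left out. Symbols came from the platform annotation (1 for 7006 probe sets, several for 308, none for 1426), and of these 6985 were found in a RefSeq table. For the 6 arrays, signals were raised to the 25th percentile (18.2), log2 was taken, and 4688 probe sets with a mean above the median signal (82.95) in either cell type were tested.

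Neurons were compared with astrocytes in limma 3.58.1 under R 4.3.3 (lmFit, eBayes, trended prior), with the dose as a block (2 residual degrees of freedom). Two-sided p-values were adjusted by Benjamini-Hochberg over all probe sets tested, and called below 0.05. A second fit compared slopes on log10 of the dose plus 1, with an intercept and a slope per cell type (2 residual degrees of freedom). Groups were taken from the sample titles, and the number of arrays limits the precision. Deviations of arrays that share a dose correlated at -0.052, 0.033 and -0.083, none above 0.1, and no label says what else such arrays share. On simulated data of 4688 probe sets with an SD of 0.13 log2, the first fit recovered 100 of 100 changes of 1 log2 and 100 of 100 of 2 log2 with 5 false calls, and the second 80 and 100 with 12. This SD was the median of the neuron arrays, below the 0.21 log2 of the astrocyte arrays. Far fewer probe sets were changed than the 1895 called in the data. The simulation therefore does not give the recovery or the false calls in the data.

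The comparison, 32 gene lists and 39 isoform pairs were chosen with earlier results of these data known. Named were the 20 largest differences each way without overlap, 6 markers, the 4 largest members of each list and called members against its majority, isoform pairs, the 10 largest changes of the difference each way between 0 and 10 µg/ml, and the 10 brightest genes within 0.2 log2 at every dose. Other genes, among them most with a called slope, were chosen after their values were seen. Alternatives were quantile normalization, median centring, no floor, other filters, gene means, a constant prior, no block, each pair of arrays left out, the 100 µg/ml array added and ranked doses. Python 3.11.15 with matplotlib 3.10.9 drew the figures.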

Additional observations from a re-analysis of the deposited data

Results flagged for a closer look

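The difference between the cell types changed with dose in 21 genes, by the limma test of the slope on log10 of the dose plus 1 in neurons minus that in astrocytes (adjusted p below 0.05). Values are in log2 per unit of that scale. Among chemokines and adhesion molecules it was -6.57 for Ccl20, -5.12 for Cxcl10, -2.71 for Cx3cl1, -2.48 for Ccl2, -2.64 for Vcam1 and -2.12 for Icam1. For the interferon-induced genes Rsad2, Gbp2, Irgm2 and Irf1 it was -5.13, -3.85, -3.21 and -2.70. Il1a, an interleukin, stood at -4.06, and Nfkbia, the inhibitor of NF-kB, at -2.71. The transcription factors Fosl1 and Cebpb stood at -3.41 and -2.33. Gch1, which makes a cofactor of nitric oxide synthesis, stood at -3.47, and Pde4b, which degrades cAMP, at -2.36. Pvr, the poliovirus receptor, stood at -3.33, and Cd200 at -2.51. Zfp36, which destabilises cytokine mRNA, stood at -1.81, and Litaf, a lysosomal membrane protein, at -1.43. Fst alone was positive, at 2.25. None of the 21 was called with the doses as ranks or without the signal filter. Each dose is 1 array per cell type, so dose and a difference of a single array cannot be told apart, and the cause was not tested.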

How the results depend on the processing

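Of 4688 probe sets 1895 were called between the cell types. The count was 892 of 8740 without the signal filter, 1160 of 2463 with the stricter filter (above 447.7) and 1121 of 2706 with probe sets averaged per gene, and the numbers tested differ by construction. Leaving out the pair of arrays at one dose gave between 966 (without 1 µg/ml) and 2103 (without 10 µg/ml), with fewer arrays by construction, and without the 1 µg/ml pair 47 of 283 differences of named genes lost their call. Without the replicate block 2104 were called, and the labels give no pairing beyond the dose. Quantile normalization, median centring, no floor and a constant prior gave between 1768 and 1926, and the 100 µg/ml array, added without the block, 1414 of 4672. The excess towards neurons, 1062 against 833, depended on the scaling. It was 988 against 938 with quantile normalization and 941 against 908 with median centring. The median difference was 0.0059 and 0.018 log2 with these, against 0.071. The slope differed in 32 probe sets, against 2 without the signal filter, 19 by gene means, 4 with a constant prior and 0 with doses as ranks (487 at an unadjusted p below 0.05 in limma). Quantile normalization, median centring, no floor and the stricter filter gave between 26 and 47. Signs turned, over the alternatives run on the named genes, for Hrk (1.42) and Tpm1 (0.97) with gene means. Without the untreated or the 10 µg/ml pair, the lowest and highest values were -0.58 and 0.77 for Nfkbia, -0.61 and 0.58 for Cebpb, and -0.54 and 0.50 for Icam1. The cause was not tested. Signals near the floor limit the folds given as at least.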
